A study of Mus musculus with 12 samples.

Results

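The MS4A gene cluster was followed here through 6 of its genes, *Ms4a4a*, *Ms4a4c*, *Ms4a6b*, *Ms4a6c*, *Ms4a6d* and *Ms4a7*, which were picked by gene symbol from the 55401 genes counted in each library. RNA of sorted CD45int CD11b+ microglia was sequenced in 12 libraries, with 3 replicates in each of 4 groups. WT mice (CX3CR1 wt/wt: HDAC3 loxp/loxp) carried floxed *Hdac3* alleles and no CreER. HDAC3-miKO mice (CX3CR1 CreER/wt: HDAC3 loxp/loxp) carried the same floxed alleles with a tamoxifen-inducible Cre in 1 copy of *Cx3cr1*, so that loss of *Hdac3*, the presence of CreER and loss of 1 *Cx3cr1* copy cannot be told apart. According to the methods of the study, all mice were male, and deletion was induced with tamoxifen at 100 mg/kg on 5 consecutive days at 6 to 8 weeks of age, at least a month before surgery. The tFCI groups underwent 60 min of left middle cerebral artery occlusion, the Sham groups underwent the same anesthesia and exposure of the artery, and microglia were isolated on day 3. Each library combined cells from 3 to 4 hemispheres.

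MS4A genes encode small membrane proteins that span the membrane several times, and many of them sit beside signaling receptors of immune cells. In macrophages, MS4A4A associates with the receptor Dectin-1 (*Clec7a*), and variation in the human MS4A cluster is linked to the amount of soluble TREM2 and to the risk of Alzheimer's disease. *Ms4a7* is commonly used to mark macrophages at the borders of the brain, whereas resting microglia express little of it. Human and mouse clusters differ in gene content, so a mouse gene need not have a direct human counterpart.

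The 6 genes lay within 283.8 kb of chromosome 19 (chr19:11321039-11604849, GRCm38, GENCODE M21). *Ms4a7* (ENSMUSG00000024672.11, chr19:11321039-11336146) marked one end and *Ms4a6d* (ENSMUSG00000024679.10, chr19:11586604-11604849) the other, and both are on the minus strand. Between them, on the plus strand, were *Ms4a4a* (ENSMUSG00000101389.1, chr19:11375523-11392790), *Ms4a4c* (ENSMUSG00000024675.19, chr19:11404770-11427246), *Ms4a6c* (ENSMUSG00000079419.4, chr19:11469366-11482192) and *Ms4a6b* (ENSMUSG00000024677.13, chr19:11516512-11531256). The span also holds *Ms4a4b* and *Ms4a4d*. Counts were taken over the annotated exons of each gene.

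The starts of 2 neighboring genes, *Ms4a6b* and *Ms4a6c*, share sequence. Whether the shared sequence bears on their expression was not tested. In RefSeq (GRCm38.p6), *Ms4a6b* (chr19:11518309-11518558) and *Ms4a6c* (chr19:11469118-11469367), both on the plus strand, share an unbroken run of 48 bases in the 250 bases before their start sites, printed in capitals.
Ms4a6b: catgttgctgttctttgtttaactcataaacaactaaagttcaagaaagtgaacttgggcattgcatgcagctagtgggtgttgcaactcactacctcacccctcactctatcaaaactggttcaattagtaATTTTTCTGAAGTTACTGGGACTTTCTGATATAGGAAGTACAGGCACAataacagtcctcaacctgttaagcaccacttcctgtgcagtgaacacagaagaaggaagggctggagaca
Ms4a6c: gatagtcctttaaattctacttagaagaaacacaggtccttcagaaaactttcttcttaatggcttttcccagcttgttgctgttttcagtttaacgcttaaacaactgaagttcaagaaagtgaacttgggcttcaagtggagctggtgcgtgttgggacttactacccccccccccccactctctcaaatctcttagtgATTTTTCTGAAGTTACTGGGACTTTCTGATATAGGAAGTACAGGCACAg
The run begins at position -118 of *Ms4a6b* and at position -49 of *Ms4a6c*, counted from the start site. Over the aligned part, 153 of 173 bases were identical. No other pair among the 6 promoters on file, of which *Ms4a7* has 2 and *Ms4a6d* none, shared a run longer than 9 bases.

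Promoters were also searched on both strands for letters chosen for myeloid and interferon-responsive genes, over 250 bases before and 50 after each start. The first promoter of *Ms4a7* (chr19:11336147-11336396, minus strand), the gene that differed between genotypes under both surgeries, and the promoter of *Ms4a4c* (chr19:11407411-11407660, plus strand) are shown with the letters found before the start in capitals.
Ms4a7: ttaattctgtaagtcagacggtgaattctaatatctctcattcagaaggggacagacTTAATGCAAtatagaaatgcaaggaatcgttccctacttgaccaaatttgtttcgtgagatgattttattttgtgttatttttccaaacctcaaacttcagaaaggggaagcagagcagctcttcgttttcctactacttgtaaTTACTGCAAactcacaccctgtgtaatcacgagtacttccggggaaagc
Ms4a4c: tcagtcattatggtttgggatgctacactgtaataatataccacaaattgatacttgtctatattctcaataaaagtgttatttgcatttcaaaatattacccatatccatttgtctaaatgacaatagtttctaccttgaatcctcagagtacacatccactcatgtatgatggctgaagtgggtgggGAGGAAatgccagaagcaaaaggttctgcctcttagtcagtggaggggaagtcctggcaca
In *Ms4a7* the capitals are the C/EBP letters TTGCNNNAA on the opposite strand, at -193 and -49, and the PU.1 core GAGGAA also lies at 44 after the start. In *Ms4a4c* the capitals are GAGGAA at -61. The second *Ms4a7* promoter holds the AP-1 letters TGANTCA at -81, which read the same on both strands, overlapping the letters TTGCNNNAA at -78. *Ms4a4a*, *Ms4a6b* and *Ms4a6c* held none of the 4 patterns searched, and the interferon response motif was in none of the 6 promoters. *Ms4a6d* had no promoter on file and was not searched. Of 32851 mouse promoters, 28.3% hold GAGGAA, 9.56% the letters TTGCNNNAA, 7.81% the AP-1 letters and 3.44% the interferon response motif.

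Libraries held 7697864 to 9452222 counts on genes. *Hdac3* was at 20.9 to 25.8 CPM (counts scaled to library size with TMM factors) in miKO-Sham against 35 to 46.4 CPM in WT-Sham, and at 27.1 to 36.0 CPM in miKO-tFCI against 43.9 to 54.0 CPM in WT-tFCI, so each miKO group lay below its WT group. The summed level of 12 microglia markers ranged from 26500 to 32100 (WT-Sham), 22700 to 28100 (miKO-Sham), 20300 to 21400 (WT-tFCI) and 10500 to 17400 CPM (miKO-tFCI). The labels put replicate 1 of each group in batch 1 and replicates 2 and 3 in batch 2, and batch was a term in the fit. In 3 groups replicates 2 and 3 were the closest pair (chi-square of 3.87 to 14.4 per degree of freedom), but in miKO-Sham the closest pair was replicates 1 and 2 (2.88), which the labels place in different batches, while replicate 3 lay apart from both (42.7 and 46.1). Whether a batch label in miKO-Sham is in error, or whether these 2 libraries came from the same cells, was not tested. Values given by batch for miKO-Sham rest on the labels, and the 3 miKO-Sham libraries may hold less than 3 independent samples. *Ms4a7*, *Ms4a6b* and *Ms4a6d* were called in miKO-Sham vs. WT-Sham without each miKO-Sham library in turn. Stretches of 75 bases shared with other genes made up 3.78% of *Ms4a4c*, 2.88% of *Ms4a6c* and under 1% of the other 4 genes.

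Levels of different genes were compared per kb of exon, with the length taken over all annotated exons of a gene. On this scale *Ms4a6d* was the most abundant of the 6 genes in all 4 groups. In WT-Sham *Ms4a6d* was at 57.3 CPM per kb. It was followed by *Ms4a6b* with 22.3, *Ms4a6c* with 11.8, *Ms4a4a* with 3.49, *Ms4a7* with 2.16 and *Ms4a4c* with 1.66 CPM per kb. The ranking and the shares depend on the lengths used, and which transcripts were expressed was not determined. *Ms4a6b* (4485 bases of exon) and *Ms4a6d* (1735 bases) had similar CPM in WT-Sham, with means of 99.8 and 99.4. *Ms4a6d* made up 58.0% ± 2.15 (SD, n = 3) of the summed level of the 6 genes in WT-Sham and 46.7% ± 3.29 (SD, n = 3) in miKO-tFCI. The bars of makeup by library show the *Ms4a4a* share at 3.09% to 3.89% in WT-Sham and at 11.6% to 28.9% in miKO-tFCI. The summed level was 98.7 ± 4.19 CPM per kb in WT-Sham, 65.0 ± 15.8 in miKO-Sham, 351 ± 89.9 in WT-tFCI and 577 ± 257 in miKO-tFCI (SD, n = 3 each). Shares and sums include *Ms4a6c*, whose level is uncertain because its exons overlap those of *BE692007*, a gene on the opposite strand, by 1088 bases.

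**Figure D1:**
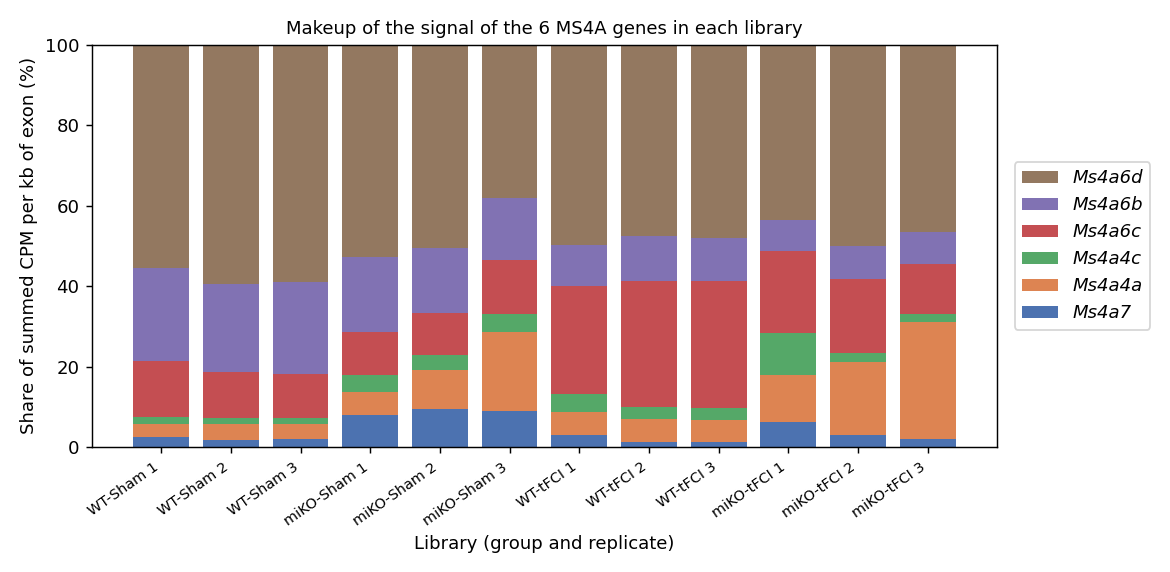
Share of each gene (%, vertical axis) in the summed CPM per kb of exon of the 6 genes, for each of the 12 libraries (horizontal axis, group and replicate). *Ms4a6d* is the largest part of every bar (38.2% to 59.6%), and the part of *Ms4a6c* is widest in WT-tFCI (26.9% to 31.7%). The level of *Ms4a6c* is uncertain because its exons overlap those of *BE692007*.

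The first comparison asked how microglia of WT mice responded to tFCI. All 6 genes rose in WT-tFCI vs. WT-Sham, where 20.9% of the 16451 genes tested were called higher (edgeR's quasi-likelihood test, Benjamini-Hochberg adjusted p under 0.05 and absolute log2 fold change above 0.58). In either direction, 32.6% of genes were called. The median log2 fold change of the 6 genes was 2.03, against 0.02 over all genes tested. On log2 CPM with batch removed, no gene of the 6 overlapped between groups, where 57.5% of all genes did not overlap, 31.3% being higher and 26.2% lower. *Ms4a6c* rose most, 8.57-fold, and *Ms4a6b* rose least, 1.63-fold. In sorted cells measured in bulk, a change in the share of a cell type and a change in RNA per cell cannot be told apart.

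*Ms4a6c* was at 27.6, 24.0 and 21.2 CPM in WT-Sham replicates 1 to 3 and at 136, 262 and 259 CPM in WT-tFCI. The groups did not overlap, and the batch 1 library was the lowest of the WT-tFCI group. The log2 fold change was 3.10 (standard error 0.25, edgeR adjusted p = 2.98e-07). Exons of *Ms4a6c* overlap by 1088 bases with *BE692007*, a gene on the opposite strand whose log2 fold change was 2.97. Since the sources used here do not state a strand setting for the counting, reads of these 2 genes cannot be told apart and the level of *Ms4a6c* is uncertain.

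*Ms4a4c* was at 3.13, 2.91 and 2.67 CPM in WT-Sham and at 19, 20.2 and 20.1 CPM in WT-tFCI, with little spread within either group. Its log2 fold change was 2.78 (standard error 0.33, edgeR adjusted p = 1.7e-05). *Ms4a4a*, the Dectin-1 partner, was at 2.52, 3.36 and 2.87 CPM in WT-Sham and at 11.6, 20 and 17.9 CPM in WT-tFCI, again without overlap. Its log2 fold change was 2.53 (standard error 0.48, edgeR adjusted p = 0.00078).

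*Ms4a6d*, known to pair with the receptor VSIG4 in macrophages, was at 94.1, 107 and 97.3 CPM in WT-Sham and at 214, 337 and 332 CPM in WT-tFCI. Every WT-tFCI library was above every WT-Sham library. The log2 fold change was 1.53 (standard error 0.22, edgeR adjusted p = 8.22e-05). *Ms4a7* was at 11.5, 8.63 and 8.72 CPM in WT-Sham and at 33.9, 21.9 and 24.2 CPM in WT-tFCI. It too was separated by surgery, and the log2 fold change was 1.47 (standard error 0.21, edgeR adjusted p = 0.000102).

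*Ms4a6b*, whose protein is known from T cells, was at 101, 101 and 97.8 CPM in WT-Sham and at 114, 203 and 190 CPM in WT-tFCI. The groups did not overlap, but the batch 1 library of WT-tFCI was close to the WT-Sham range. The log2 fold change was 0.70 (standard error 0.23, edgeR adjusted p = 0.0241), with 0.17 in batch 1 and 0.99 in batch 2. The call was lost without WT-Sham replicate 2 (log2 fold change 0.57), WT-Sham replicate 3 (0.55), WT-tFCI replicate 2 (0.58) or WT-tFCI replicate 3 (0.63), and without the batch term (0.76), with edgeR adjusted p from 0.0667 to 0.13 in these fits.

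**Figure D2:**
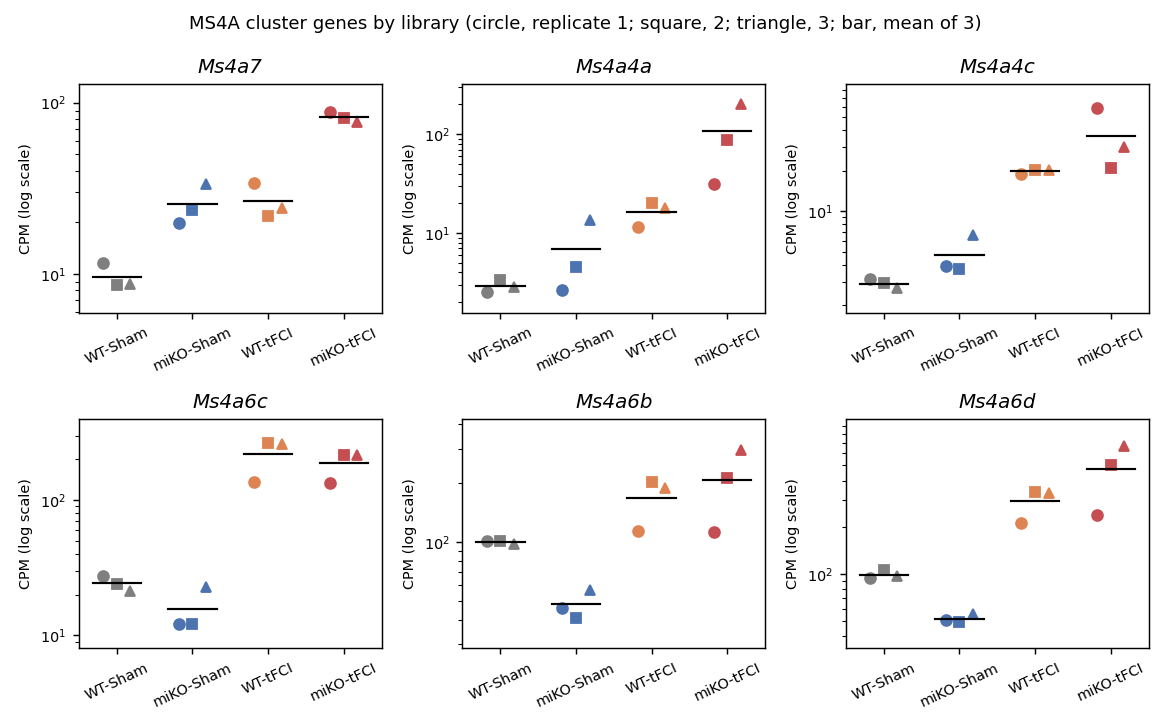
CPM (vertical axis, log scale) of the 6 genes in each library of the 4 groups (horizontal axis). Circles, squares and triangles are replicates 1, 2 and 3, and the bar is the mean of 3. *Ms4a7* in miKO-tFCI (77.5 to 88.5 CPM) lies above all other groups, and *Ms4a6b* and *Ms4a6d* in miKO-Sham (41.1 to 57.1 and 49.5 to 55.1 CPM) lie below all other groups.

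Several marker lists moved with this response. Of 12 microglia markers, 7 were called lower and 1 higher, where 11.7% of all genes were called lower. All 15 interferon response genes tested were called higher, as were 5 of 11 tested monocyte and macrophage markers, against 20.9% of all genes. The 3 of 11 border-associated macrophage markers called higher were close to that share, with a median log2 fold change of 0.37. The summed monocyte and macrophage markers were at 1850 to 2690 CPM in WT-tFCI against 456 to 763 CPM in WT-Sham, and 371 to 683 against 14.6 to 99.2 CPM without *Lyz2* (lysozyme), their most abundant gene. *Ccr2*, the chemokine receptor of inflammatory monocytes, was at 21.4, 3.35 and 3.17 CPM in WT-tFCI and at 8.05, 4.71 and 5.54 CPM in WT-Sham, so replicates 2 and 3 of WT-tFCI were below every WT-Sham library. *Ly6c2*, a surface antigen of inflammatory monocytes, was at 23, 1.96 and 1.1 CPM in WT-tFCI and at 19.7, 0.784 and 0 CPM in WT-Sham, with overlap. Some other markers of the list were higher in all WT-tFCI libraries. Among them were *Fn1* (fibronectin) at 446, 296 and 365 CPM against 0.205 to 3.25 CPM in WT-Sham, and *Vcan* (versican) at 4.91, 2.31 and 1.83 against 0 to 0.336 CPM. *Fn1* made up most of the WT-tFCI sum without *Lyz2*. *Ms4a6c*, *Ms4a6d*, *Ms4a6b* and *Ms4a4a* were highest in replicates 2 and 3, and *Ms4a4c* differed little between replicates. *Ms4a7* was highest in replicate 1 (33.9 against 21.9 and 24.2 CPM), as were *Ccr2*, *Fn1* and *Vcan*. The part of these cell types in the result was not tested beyond these values.

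In miKO mice all 6 genes rose as well. In miKO-tFCI vs. miKO-Sham, 21.9% of all genes tested were called higher and 35.8% in either direction. All 6 genes were without overlap, where 52% of all genes did not overlap, 28.8% being higher and 23.2% lower. The median log2 fold change of the 6 genes was 2.98, against 0.03 over all genes tested. *Ms4a4a* rose most (log2 fold change 3.84, standard error 0.43, edgeR adjusted p = 9.22e-06), followed by *Ms4a6c* with 3.57 and *Ms4a6d* with 3.11. *Ms4a4c* rose by 2.86, *Ms4a6b* by 2.04 and *Ms4a7* by 1.67 on the log2 scale. Markers of several cell types moved in the same comparison. All 12 microglia markers were called lower, where 13.9% of all genes were, and 7 of 11 border-associated macrophage, 7 of 11 monocyte and macrophage and 4 of 11 neutrophil markers were called higher. Their part in the rise of the 6 genes was not tested. This comparison and those below share libraries with each other, so their values are not independent.

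The second comparison asked how miKO microglia differed from WT once stroke had been induced. *Ms4a4a* and *Ms4a7* were higher in miKO-tFCI vs. WT-tFCI, and *Ms4a4c*, *Ms4a6b*, *Ms4a6c* and *Ms4a6d* did not pass the test. The 2 of 6 compare with 4.08% of all genes called higher and 8.79% called in either direction. With batch removed, *Ms4a4a*, *Ms4a4c*, *Ms4a6d* and *Ms4a7* were higher without overlap, where 33.7% of all genes did not overlap, 17.2% being higher. The median log2 fold change of the 6 genes was 0.73, against 0.04 over all genes tested.

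*Ms4a7* was at 33.9, 21.9 and 24.2 CPM in WT-tFCI and at 88.5, 80.9 and 77.5 CPM in miKO-tFCI. The miKO-tFCI libraries lay close together, and the lowest of them exceeded the highest WT-tFCI library. *Ms4a7* was 3.10-fold higher (log2 fold change 1.63, standard error 0.20, edgeR adjusted p = 0.000166), with log2 differences of 1.38 in batch 1 and 1.74 in batch 2. It was called under all 21 alternatives, with log2 fold changes of 1.53 to 1.78.

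*Ms4a4a* was at 11.6, 20 and 17.9 CPM in WT-tFCI and at 31.0, 88.0 and 201 CPM in miKO-tFCI. The groups did not overlap, and the miKO-tFCI libraries differed widely from each other. The log2 fold change was 2.49 (standard error 0.39, edgeR adjusted p = 0.00122), with 1.40 in batch 1 and 2.89 in batch 2. Without miKO-tFCI replicate 3, the highest library, it was 1.90 (edgeR adjusted p = 0.00463). *Ms4a4a* was called under all 21 alternatives, with log2 fold changes of 1.90 to 2.89.

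*Ms4a4c* was at 58.5, 21.1 and 29.8 CPM in miKO-tFCI against 19 to 20.2 CPM in WT-tFCI. All miKO-tFCI libraries were above WT-tFCI, replicate 1 by far the most, and the log2 fold change of 0.82 (standard error 0.28, 95% interval 0.21 to 1.43) did not pass the test (edgeR adjusted p = 0.0837). It differed between batches, with 1.61 in batch 1 and 0.29 in batch 2. In the same libraries *Ccr2* was at 75.9, 18.5 and 22.4 CPM and *Ly6c2*, a surface antigen of inflammatory monocytes, at 68.0, 11.2 and 11.4 CPM, so that replicate 1 was highest for all 3 genes.

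*Ms4a6d* was at 241, 503 and 671 CPM in miKO-tFCI, overlapping the 214 to 337 CPM of WT-tFCI. The log2 fold change of 0.64 (standard error 0.21, 95% interval 0.19 to 1.10) did not pass the test (edgeR adjusted p = 0.0704), although it passed in 6 of 21 alternatives, among them DESeq2 (0.65, DESeq2 adjusted p = 0.0229) and batch 2 alone (0.77, edgeR adjusted p = 0.00753). *Ms4a6b* was at 112, 213 and 297 CPM and *Ms4a6c* at 133, 217 and 216 CPM in miKO-tFCI, and both overlapped WT-tFCI. Their log2 fold changes were 0.27 (95% interval -0.21 to 0.75) and -0.20 (95% interval -0.67 to 0.27), with edgeR adjusted p = 0.477 and 0.614.

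Some markers of other macrophages were also higher in miKO-tFCI. Of the border-associated macrophage markers, 4 of 11 tested were called higher. Among them was *F13a1*, at 71, 170 and 323 CPM in miKO-tFCI against 32.8 to 51.4 CPM in WT-tFCI. The summed list was at 1010, 2190 and 2180 CPM in miKO-tFCI replicates 1 to 3 against 715 to 1050 CPM in WT-tFCI. Most of that sum was *Stab1*, at 661, 1490 and 1280 against 528 to 771 CPM, which did not pass the test (edgeR adjusted p = 0.0556). *Mrc1*, the mannose receptor, was at 17.4, 143 and 162 CPM against 18.3, 65.1 and 56.7 CPM in WT-tFCI. *Lyve1*, a hyaluronan receptor, was at 4.23, 33.4 and 58.0 against 3.83, 13.4 and 9.63 CPM. Neither gene passed the test (edgeR adjusted p = 0.205 and 0.139). *Ms4a4a* was lowest in replicate 1 and highest in replicate 3, as were *F13a1*, *Mrc1* and *Lyve1*. Some other genes of the list were highest in replicate 1 and lowest in replicate 3, as was *Ms4a7* on CPM. *Ms4a7* itself varied little there (88.5, 80.9 and 77.5 CPM), and with batch removed it was at 6.4, 6.42 and 6.36 log2 CPM. *Pf4* (platelet factor 4) was at 123, 84 and 68.1 CPM against 40.5 to 49.4 CPM in WT-tFCI, and *Clec10a*, a lectin, at 15, 6.16 and 4.82 against 3.17 to 5.98 CPM. These 2 genes did not pass the test either (edgeR adjusted p = 0.0588 and 0.352). Still others, among them *Folr2* (44.8, 93.3 and 85.3 CPM) and *Stab1*, were highest in replicate 2 and had neither order. The list thus held genes with the replicate order of *Ms4a4a* and genes without it.

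Of the monocyte and macrophage markers, 5 of 11 tested were called higher, with a summed level of 7480 to 10400 CPM against 1850 to 2690 CPM in WT-tFCI. Without *Lyz2* the sums were 461 to 1040 against 371 to 683 CPM and overlapped. Most of the remaining sum in WT-tFCI was *Fn1*, at 446, 296 and 365 CPM, compared with 358, 136 and 122 CPM in miKO-tFCI. *Fn1* alone among the tested markers had a fold change below 0 (-0.96 on the log2 scale, edgeR adjusted p = 0.183). The other 10 of 11 were above 0, and the median of the list was 1.93. Besides *Lyz2*, the called markers included *Chil3* (2.23, edgeR adjusted p = 0.0184) and *Ccr2* (2.16, edgeR adjusted p = 0.0149). Of the neutrophil markers, 7 of 11 were called higher and their sum was at 959 to 1280 against 504 to 592 CPM, with *Mmp8*, a collagenase of neutrophil granules, at means of 8.96 against 1.07 CPM and *Cxcr2*, a chemokine receptor, at 8.6 against 0.911 CPM. *Ly6g*, which defines neutrophils, averaged 0.469 against 0.237 CPM and did not pass the filter on low counts. Of the microglia markers, 7 of 12 were called lower, where 4.71% of all genes were. The part of other cell types in the differences of *Ms4a4a* and *Ms4a7* was not tested beyond these values.

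The third comparison asked how the genotypes differed without stroke. In miKO-Sham vs. WT-Sham the cluster split, with *Ms4a7* higher, *Ms4a6b* and *Ms4a6d* lower, and *Ms4a4a*, *Ms4a4c* and *Ms4a6c* not passing the test. Among all genes tested, 15.4% were called, 8.58% higher and 6.8% lower. With batch removed, *Ms4a4c* and *Ms4a7* were higher and *Ms4a6b* and *Ms4a6d* lower without overlap, where 35.6% of all genes did not overlap, 18.1% being higher and 17.5% lower. The median log2 fold change of the 6 genes was 0.04, the same as over all genes tested.

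*Ms4a7* was at 19.7, 23.6 and 33.6 CPM in miKO-Sham against 11.5, 8.63 and 8.72 CPM in WT-Sham. Without overlap, it was 2.70-fold higher (log2 fold change 1.43, standard error 0.22, edgeR adjusted p = 0.000273), with 0.76 in batch 1 and 1.71 in batch 2. In miKO-Sham replicates 1 and 2, *Mrc1* was at 19.6 and 17.5 CPM and *Lyve1* at 2.78 and 1.94 CPM, below every WT-Sham library (32.7 to 42.8 and 3.92 to 7.21 CPM). *Folr2*, a folate receptor of the same marker list, was instead at 37.5, 34.3 and 47.9 CPM in miKO-Sham against 5.53 to 7.62 CPM in WT-Sham, higher in every library and highest in replicate 3, as was *Ms4a7* (*Folr2* log2 fold change 2.65, edgeR adjusted p = 7.93e-07). In miKO-Sham replicate 3, *Mrc1* (81.7 CPM), *Lyve1* (19.7 CPM), *Folr2* and *Ms4a7* were the highest of the sham libraries. Without replicate 3, *Ms4a7* was still called higher, and over all alternatives its log2 fold change was 1.16 to 1.71. Of the border-associated macrophage markers, 3 of 11 were called higher, and their sum was 1440 to 1670 against 586 to 717 CPM. Most of that sum was *Stab1* (stabilin-1), at 1500, 1580 and 1070 CPM in miKO-Sham replicates 1 to 3 and 445 to 583 CPM in WT-Sham, so *Stab1* was lowest in the replicate where *Ms4a7* was highest. The monocyte and macrophage list was at 7180 to 9170 against 456 to 763 CPM, and at 62.0 to 119 against 14.6 to 99.2 CPM without *Lyz2*. The part of these cell types in the difference of *Ms4a7* was not tested.

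*Ms4a6b* was at 45.8, 41.1 and 57.1 CPM in miKO-Sham against 101, 101 and 97.8 CPM in WT-Sham. The highest miKO-Sham library was far below the lowest WT-Sham library, and the log2 fold change was -1.07 (standard error 0.23, edgeR adjusted p = 0.00476), similar in batch 1 (-1.14) and batch 2 (-1.02). *Ms4a6d* was at 50.5, 49.5 and 55.1 CPM against 94.1, 107 and 97.3 CPM. The groups did not overlap, and the log2 fold change was -0.94 (standard error 0.22, edgeR adjusted p = 0.00756), with -0.89 and -0.97 in the 2 batches. *Ms4a6b* was called under all 21 alternatives and *Ms4a6d* under 20 of 21, the exception being the fit without the batch term (-0.94, edgeR adjusted p = 0.0516).

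*Ms4a6c* was at 12.2, 12.2 and 22.8 CPM in miKO-Sham, where replicate 3 overlapped the 21.2 to 27.6 CPM of WT-Sham. Its log2 fold change of -0.67 (standard error 0.25, 95% interval -1.20 to -0.13) did not pass the test (edgeR adjusted p = 0.0801), and without miKO-Sham replicate 3 it was -0.93 and passed (edgeR adjusted p = 0.0262). *Ms4a4a* was at 2.64, 4.58 and 13.6 CPM and overlapped WT-Sham, and the log2 fold change was 1.18 (standard error 0.51, edgeR adjusted p = 0.131). *Ms4a4c* was at 3.89, 3.75 and 6.66 CPM, above every WT-Sham library, and the log2 fold change was 0.74 (standard error 0.36, edgeR adjusted p = 0.188). Both genes were highest in replicate 3, as was *Mrc1*.

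**Figure D3:**
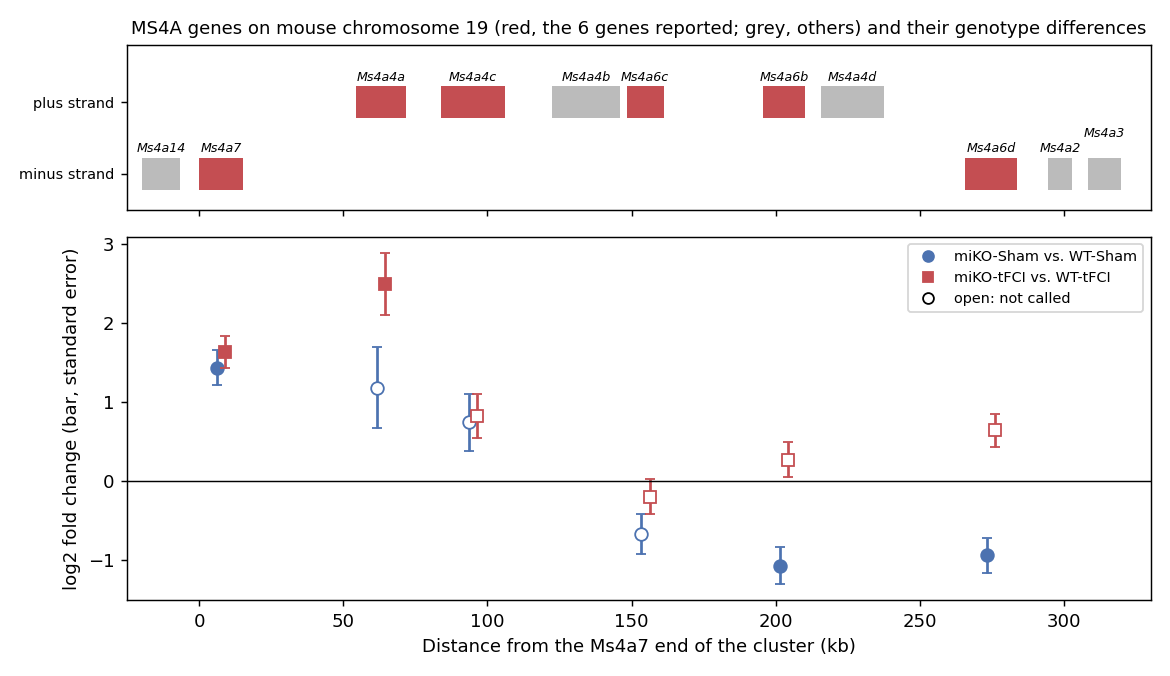
Top, position of MS4A genes along the cluster (horizontal axis, kb from the end at *Ms4a7*) by strand. Bottom, log2 fold change between genotypes with its standard error for each of the 6 genes at its midpoint (circles, miKO-Sham vs. WT-Sham, and squares, miKO-tFCI vs. WT-tFCI), with filled symbols for called genes. Under sham surgery, values were 1.43, 1.18 and 0.74 for the 3 genes at the *Ms4a7* end and -0.67, -1.07 and -0.94 for the 3 genes at the *Ms4a6d* end.

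Along the chromosome, the 3 genes nearest the *Ms4a7* end had fold changes above 0 in miKO-Sham vs. WT-Sham and the 3 nearest the *Ms4a6d* end had fold changes below 0, as the map of the cluster shows. Only *Ms4a7*, *Ms4a6b* and *Ms4a6d* passed the test. In miKO-tFCI vs. WT-tFCI both called genes, *Ms4a7* and *Ms4a4a*, were at the *Ms4a7* end, but 5 of the 6 fold changes were above 0. At the other end, *Ms4a6d* had a log2 fold change of 0.64, which passed in 6 of 21 alternatives.

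The interaction of genotype and surgery asked whether the response to tFCI differed between genotypes. It is the log2 fold change of miKO-tFCI vs. miKO-Sham minus that of WT-tFCI vs. WT-Sham. *Ms4a6d* and *Ms4a6b* passed the test with a larger rise in miKO, against 1.25% of all genes called higher, 2.57% lower and 3.82% in either direction. *Ms4a6d* rose from 51.7 to 472 CPM in miKO and from 99.4 to 294 CPM in WT (group means), an interaction of 1.58 (standard error 0.31, edgeR adjusted p = 0.00924), with 1.07 in batch 1 and 1.74 in batch 2. Of 20 alternatives, it failed to pass in 1, the fit without the batch term (1.62, edgeR adjusted p = 0.0661).

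*Ms4a6b* rose from 48.0 to 207 CPM in miKO and from 99.8 to 169 CPM in WT (group means). Its interaction was 1.34 (standard error 0.32, edgeR adjusted p = 0.0324). The call was lost in 9 of 20 alternatives, the fit without the batch term (1.35) and those without WT-Sham replicate 1 (1.04) or 2 (1.42), miKO-Sham replicate 2 (1.16), WT-tFCI replicate 1 (1.19), 2 (1.42) or 3 (1.37), or miKO-tFCI replicate 2 (1.37) or 3 (1.07). For both genes the miKO group was lower than WT under sham surgery, and its mean was above that of WT after tFCI.

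*Ms4a7* did not pass in the interaction (0.20, 95% interval -0.42 to 0.83, edgeR adjusted p = 0.791), so a difference between its genotype effects under sham surgery and after tFCI was not detected and could be as large as that interval allows. The same holds for *Ms4a4a* (1.31, 95% interval -0.07 to 2.69), *Ms4a6c* (0.47, 95% interval -0.24 to 1.18) and *Ms4a4c* (0.08, 95% interval -0.94 to 1.11). Their edgeR adjusted p were 0.314, 0.52 and 0.956.

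**Figure D4:**
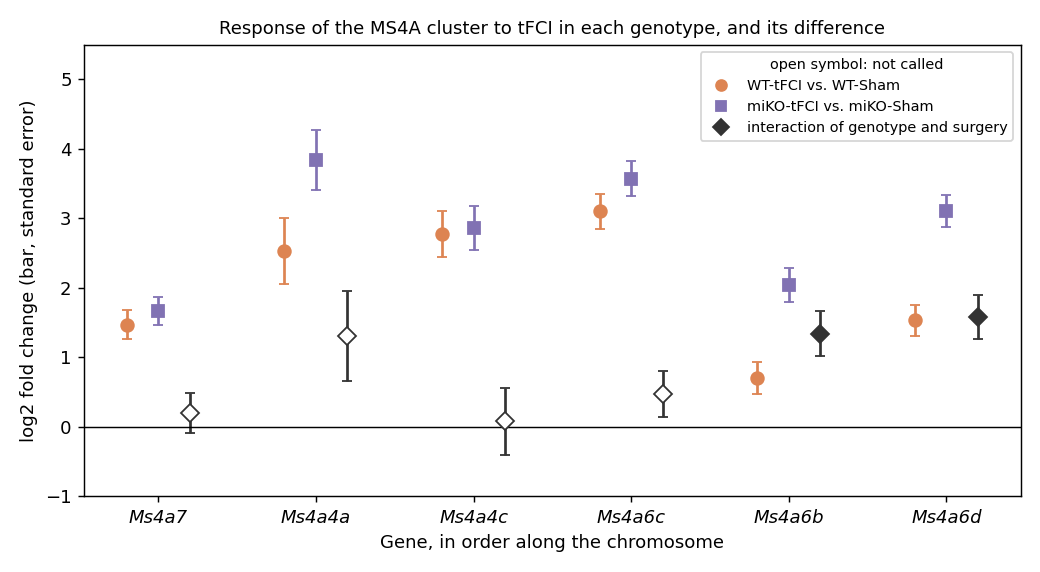
Log2 fold change with its standard error (vertical axis) of the 6 genes in order along the chromosome (horizontal axis), for tFCI against Sham in WT (circles) and in miKO (squares) and for their difference, the interaction (diamonds). Filled symbols were called. Circles and squares are all filled, and among the diamonds only those of *Ms4a6b* (1.34) and *Ms4a6d* (1.58) are.

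The order of group means differed between the genes. For *Ms4a7*, *Ms4a4a* and *Ms4a4c* WT-Sham was lowest, followed by miKO-Sham and then WT-tFCI, with miKO-tFCI highest. For *Ms4a7* the middle groups, at 25.6 ± 7.14 CPM in miKO-Sham and 26.7 ± 6.33 CPM in WT-tFCI (SD, n = 3 each), were not separated. For *Ms4a6b*, *Ms4a6c* and *Ms4a6d* miKO-Sham was lowest and WT-Sham next, and the tFCI groups overlapped on CPM for all 3 genes.

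Over the 12 libraries, on log2 CPM with batch removed, the highest Pearson's r among the 6 genes was that of *Ms4a6b* and *Ms4a6d* (0.96), followed by *Ms4a6c* and *Ms4a6d* (0.95) and *Ms4a4a* and *Ms4a7* (0.92). *Ms4a6b* and *Ms4a6c*, *Ms4a4c* and *Ms4a6c*, and *Ms4a4a* and *Ms4a4c* each had an r of 0.90. The lowest was that of *Ms4a6b* and *Ms4a7* (0.43). These values describe libraries of 4 groups that share the response to tFCI, and no test was made of them. Among genes outside the family, those most like *Ms4a7* were *Tmem120a* (0.983), *Unc119* (0.971) and *Cfp* (0.970), the last of which encodes properdin of the complement system. Those most like *Ms4a4a* were *Pla2g7* (0.983), which encodes an enzyme that inactivates platelet-activating factor, *Mindy1* (0.980) and *Dnajc3* (0.977). *Ms4a6d* was followed most closely by *Eea1* (0.977), *Cdc7* (0.974) and *Carhsp1* (0.973), and *Ms4a6b* by *Psmd11* (0.957), *Parp12* (0.940) and *Smarcc1* (0.938). For *Ms4a4c* these were *Afap1l2* (0.990), *Slc20a1* (0.984) and *Tmem8* (0.984). *Ms4a6c* was most like *BE692007* (0.996), with which it shares exon bases, then *Slc43a3* (0.995) and *Ppil1* (0.988).

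Other genes of the family were mostly silent. Of 15 others, 6 passed the filter on low counts. *Tmem176b*, an MS4A relative on another chromosome, was at 485 ± 95.4 CPM in WT-Sham, 222 ± 65.7 in miKO-Sham, 378 ± 25.9 in WT-tFCI and 228 ± 72.4 in miKO-tFCI (SD, n = 3 each), and fell in miKO-Sham vs. WT-Sham (log2 fold change -1.12, edgeR adjusted p = 0.000561) and in miKO-tFCI vs. WT-tFCI (-0.77, edgeR adjusted p = 0.0164). *Tmem176a* averaged 198 to 243 CPM by group and was not called in any comparison. *Ms4a4b*, which lies between *Ms4a4c* and *Ms4a6c*, averaged 0.270 to 2.83 CPM and was called higher in WT-tFCI vs. WT-Sham (2.18, edgeR adjusted p = 0.0357). *Ms4a14*, next to *Ms4a7*, was called higher in miKO-tFCI vs. miKO-Sham (1.81, edgeR adjusted p = 0.0176). *Ms4a8a* averaged 0.0926 CPM in miKO-Sham and 2.05 CPM in miKO-tFCI and was called higher there (4.48, edgeR adjusted p = 0.00441), and *Ms4a3* averaged at most 1.69 CPM and was not called. *Ms4a1*, which encodes the B cell antigen CD20, averaged 0.0399 to 0.557 CPM, and *Ms4a2*, the mast cell receptor subunit, averaged 0.118 to 0.275 CPM.

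A list of 15 genes tied to MS4A proteins or to TREM2 held receptors, adaptors, kinases, proteases and secreted proteins, and 14 were tested. In miKO-Sham vs. WT-Sham 8 were called higher, 2 of them secreted proteins, and 2 lower, where 8.58% and 6.8% of all genes were. In the tFCI groups 2 were called higher, 1 of them a secreted protein, and 2 lower, where 4.08% and 4.71% of all genes were. *Clec7a*, which encodes Dectin-1, averaged 17.6 CPM in WT-Sham, 448 in miKO-Sham, 87.7 in WT-tFCI and 246 in miKO-tFCI, and was higher in both genotype comparisons (log2 fold changes 4.67 and 1.49, edgeR adjusted p = 3.93e-07 and 0.00483). *Ms4a4a* in the same groups averaged 2.92, 6.93, 16.5 and 107 CPM, so the gene of the receptor was highest in miKO-Sham and that of its partner in miKO-tFCI. *Trem2* was higher in miKO-Sham vs. WT-Sham (0.68, edgeR adjusted p = 0.00673) and did not pass in miKO-tFCI vs. WT-tFCI (-0.33, edgeR adjusted p = 0.199). In the interaction 6 of the 14 were called, all lower and 2 of them secreted proteins, where 2.57% of all genes were called lower. Among them were *Clec7a* (-3.18), *Fcgr4* (-2.13), an activating Fc receptor, and *Trem2* (-1.01), whereas both MS4A genes called there, *Ms4a6b* and *Ms4a6d*, were higher.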

How the data were processed

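RNA was sequenced from sorted microglia (SMART-Seq v4, paired-end 150 bp reads). The submitters' processing notes name FastQC 0.11.9, Trim Galore, HISAT2 2.2.1, SAMtools and HTSeq 1.99.2, with builds mm10 and GRCm38.p6. The authors deposited raw counts per gene without normalization. Of all counted reads, 30.7% to 38.5% lay on genes, and those on no gene were left out. Symbols and coordinates came from GENCODE M21 (GRCm38), which holds 55141 of the 55401 identifiers. The strand setting and annotation release of the counting are not given in the sources used here.

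Counts were filtered by filterByExpr, normalized by TMM and fitted in R 4.3.3 with edgeR 4.0.16 (quasi-likelihood, group and batch over 12 libraries). Adjusted p values are Benjamini-Hochberg values over 16451 genes. The call rule, an adjusted p under 0.05 with a log2 fold change beyond 0.58 in size, came from the methods of the study. Batch was removed with limma 3.58.1 from log2 CPM (prior count 2) for correlations. DESeq2 1.42.0 and other alternatives were also run. In WT-Sham libraries *Ms4a4a* had 21 to 30 counts and *Ms4a4c* 26, so counting error weighs most on these. The methods of the study call the 3 libraries of a group biological replicates. The test sets a group difference against the spread between libraries, estimated over all 12 libraries in 1 fit and with information shared between genes.

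Genes named are the 6 members, *Hdac3*, family members, partner genes, at most the 3 most abundant genes of each other list, and the 3 genes most like each member. *Lyve1*, *Folr2*, *Pf4*, *Clec10a*, *Ccr2*, *Ly6c2*, *Vcan*, *Mmp8*, *Cxcr2*, *Ly6g* and the untested *Ms4a1*, *Ms4a2* and *Ms4a4d* were named after their values were seen, and *BE692007* for its overlap with *Ms4a6c*. The members, gene lists and rules were chosen with earlier results of these data known.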

Additional observations from a re-analysis of the deposited data

Results flagged for a closer look

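The response to tFCI differed between genotypes for *Ms4a6d* (interaction of 1.58 on the log2 scale) and *Ms4a6b* (1.34), by the test of the interaction itself (edgeR adjusted p = 0.00924 and 0.0324). Under sham surgery all 3 miKO libraries were below all 3 WT libraries for both genes. With 3 libraries in each group, single libraries were not tested for lying apart from their group.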

How the results depend on the processing

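Of 624 alternative values for the 30 log2 fold changes of the 6 genes, 586 kept their direction and their side of the threshold, 16 lost the call, 15 gained it and 7 changed direction. Members called in miKO-tFCI vs. WT-tFCI numbered 4 with no filter on low counts and 4 with only the groups compared in the fit, in place of 2. In miKO-Sham vs. WT-Sham they numbered 5 with no filter, in place of 3. In the interaction they numbered 0 without the batch term (edgeR, with 2 members at an unadjusted p under 0.05, and 2 called by DESeq2 with the batch term), and 1 to 2 when each library was left out. Direction changed for *Ms4a6b* in miKO-tFCI vs. WT-tFCI without miKO-tFCI replicate 3 (-0.01), for *Ms4a7* in the interaction without miKO-Sham replicate 1 (-0.06), and for *Ms4a4c* in the interaction without miKO-Sham replicate 1 (-0.24) or 2 (-0.02), WT-tFCI replicate 1 (-0.17) or miKO-tFCI replicate 1 (-0.41) and in batch 2 alone (-0.60). When each library was left out, these results ranged from -0.01 to 0.50 (*Ms4a6b*), -0.06 to 0.48 (*Ms4a7*) and -0.41 to 0.48 (*Ms4a4c*). None of these passed the test, and the cause was not tested. Scaling by total count moved the median of all genes to -0.23 in miKO-Sham vs. WT-Sham, where calls were 834 higher and 2398 lower in place of 1411 and 1119, but changed no direction among the 6 genes. Across all genes, the genotype comparison after tFCI gave 1446 calls, and 2535 with only its groups fitted, 2193 with no filter, 701 without the batch term, 700 without WT-tFCI replicate 2, 616 without WT-tFCI replicate 3 and 917 without miKO-tFCI replicate 3. Without TMM, 5 of 24 group levels moved by more than their SD, and shifts were -10.2% to 8.73%.

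With the replicate number as a block the counts of called members were 6, 2, 3, 6 and 2, as without it. Same-numbered libraries also share a labelled batch. Their deviations from group means correlated by -0.06 to 0.67 as measured (0.67, 0.33 and 0.32 for WT-tFCI and miKO-tFCI) and by -0.59 to 0.15 after batch removal, which constrains replicate 1, the whole of batch 1. Not every pair was above 0.1 either way, so no pairing beyond batch was used.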
